A study of Homo sapiens with 12 samples.

Results

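The vanin pantetheinases are represented on this array by VNN1, VNN2 and VNN3, which were taken by gene name as 3 of the 18131 genes measured. Vanins split pantetheine, an intermediate of coenzyme A breakdown, into pantothenate (vitamin B5), the starting material of coenzyme A synthesis, and cysteamine, an aminothiol that takes part in thiol redox balance. VNN1 is held on the cell surface by a glycosylphosphatidylinositol (GPI) anchor, and VNN2 is a GPI-anchored surface protein of neutrophils. RELA and RELB are DNA-binding subunits of the NF-kB transcription factors, which the cytokine TNFalpha activates, and EZH2 is the histone methyltransferase of the Polycomb repressive complex.

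Expression was measured on 12 single-colour Illumina bead arrays of total RNA from MDA-MB-231, an established human triple-negative breast cancer cell line. The siRNA was a negative control (siNC) or targeted EZH2 (siEZH2), RelA (siRelA) or RelB (siRelB), and TNFalpha was either withheld (CTRL) or added at 10 ng/ml for 4 h (TNF). siNC CTRL and siEZH2 CTRL had 3 arrays each, and siNC TNF, siEZH2 TNF, siRelA CTRL, siRelA TNF, siRelB CTRL and siRelB TNF had 1 array each. Whether replicates were separate cultures is not stated in the labels. The p-values therefore reflect array-to-array spread, part or all of which may be technical. The number of arrays limits the precision, and in bulk RNA a loss in fewer cells and a lower level in every cell cannot be told apart.

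Background, taken per array as the median of the undetected probes, ran from 58.1 to 101.5 and was highest on the siNC and siEZH2 CTRL arrays of replicate 2 (101.5 and 99.7). The mean number of beads per probe was 40.8 to 43.1, except on the siNC TNF array (23.6). Of 5 markers of mesenchymal-like breast lines, VIM, CD44, AXL and CAV1 were detected on all 12 arrays and ZEB1 on 5. Of 7 luminal or epithelial markers, KRT8, KRT18, KRT19 and EPCAM were also detected on all 12, GATA3 on 9 and CDH1 on 7, whereas ESR1, the estrogen receptor that this line lacks, was detected on 0. Of 10 blood-cell markers, 4 passed the detection filter used for testing (detection p under 0.05 on at least 3 arrays), and S100A8, CD3E, MS4A1 and ITGAM were detected on 0 arrays. The targeted genes followed the labels. EZH2 fell by 2.78 ± 0.37 (SE) on the log2 scale with siEZH2 (limma adjusted p = 0.00538). On both siRelA arrays RELA was below detection. RELB fell by 2.48 ± 0.23 with siRelB (limma adjusted p = 0.000597) and also fell by 2.17 ± 0.23 with siRelA (limma adjusted p = 0.0013). With siRelB, RELB was below detection on the CTRL array (log2 5.09) and detected on the TNF array (6.31). The 2.48 thus rests in part on an undetected value. RELA differed by -0.23 ± 0.22 with siRelB (limma adjusted p = 0.837).

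The 3 genes lie side by side on chromosome 6 (GRCh38.p14). VNN1 spans 132680849 to 132714055, VNN3 spans 132722787 to 132734765, and VNN2 spans 132743870 to 132763455. VNN3 is named VNN3P in that assembly and annotated as a transcribed pseudogene, whereas VNN1 and VNN2 are protein-coding. Of the 3, the RefSeq promoter table held VNN2, and its 300 bases are shown because its detected probe, like that of VNN1, fell below detection with siRelA. The window is chr6:132763406-132763705, read 5′ to 3′ on the minus strand, and capitals mark the first 50 transcribed bases after the annotated start.
VNN2 promoter: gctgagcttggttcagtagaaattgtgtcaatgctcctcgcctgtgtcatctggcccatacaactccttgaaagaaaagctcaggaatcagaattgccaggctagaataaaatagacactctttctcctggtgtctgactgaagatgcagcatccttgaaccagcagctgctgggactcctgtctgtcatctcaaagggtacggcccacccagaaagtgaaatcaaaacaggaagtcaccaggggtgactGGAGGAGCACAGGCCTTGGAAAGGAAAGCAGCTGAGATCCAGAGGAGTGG
A search of both strands for 3 motifs found 0 matches in this window. The motifs were the kB consensus bound by NF-kB, TGANTCA (the AP-1 element) and TATAAA (the TATA box). Among all 35116 promoters of the same length, 11.3% held the kB consensus, 7.71% TGANTCA and 11.5% TATAAA.

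6 of the array's probes belonged to these genes, and their detection differed sharply. The single VNN1 probe was detected on 10 arrays, all but the siRelA arrays. VNN2 had 3 probes, of which 1 was detected on the same 10 arrays and the other 2 on 0 arrays. VNN3 had 2 probes, detected on 1 array (siNC CTRL replicate 2) and on 2 arrays (siNC CTRL replicate 2 and siEZH2 CTRL replicate 2), which are the arrays with the highest background. Thus 2 of the 6 probes, 1 of VNN1 and 1 of VNN2, passed the detection filter, and VNN3 was not tested. The filter was passed on arrays of all siRNAs other than siRelA.

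**Figure D1:**
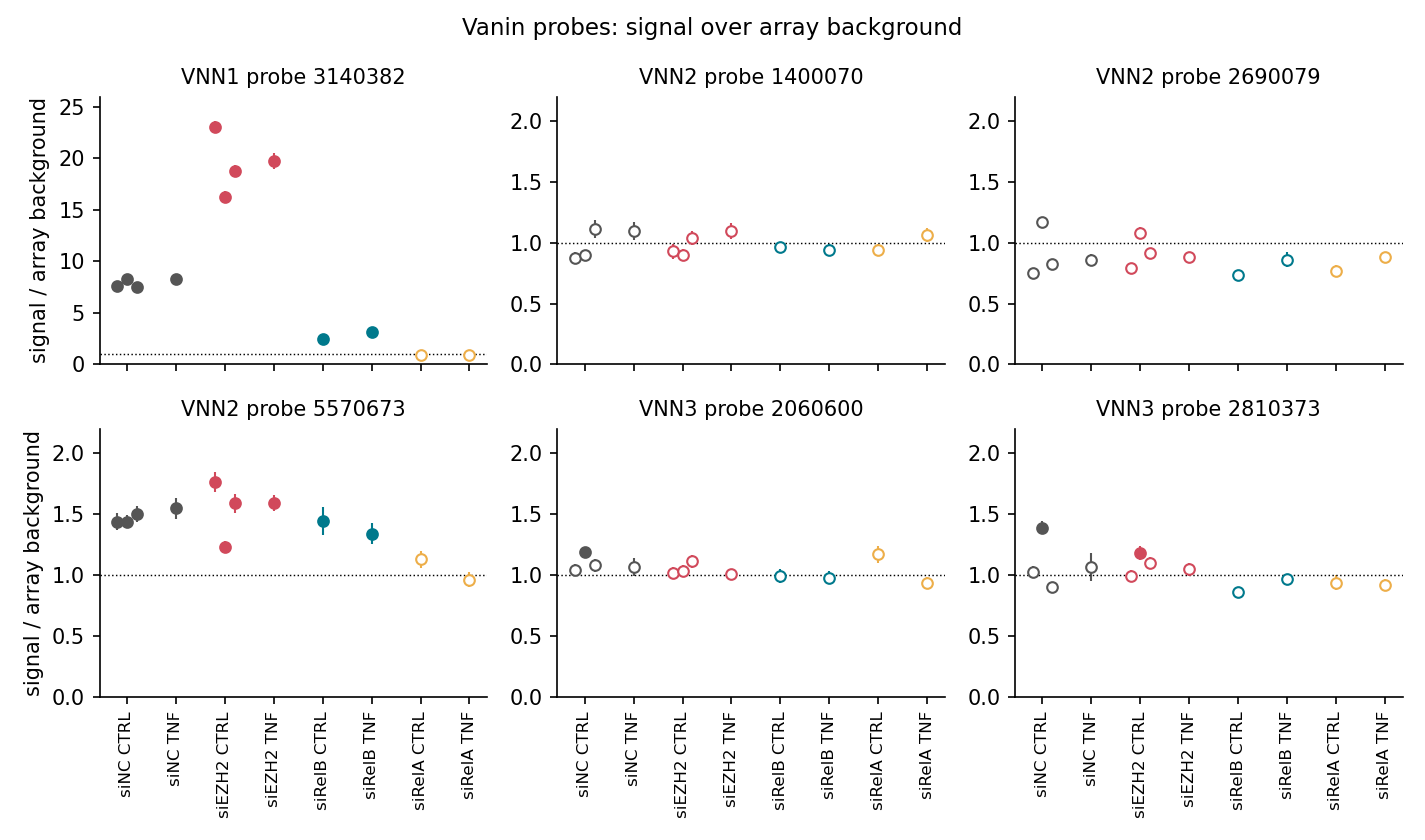
Signal of each of the 6 vanin probes divided by the background of its array (y axis, ratio) on the 12 arrays by siRNA and TNFalpha (x axis). Filled points were detected and open points were not, bars are bead standard errors, and the dotted line is background: VNN1, plotted on its own scale, ran from 0.868 to 23.0, whereas no VNN2 or VNN3 probe exceeded 1.76.

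The level of VNN1, the only vanin well above background, differed by siRNA. Its raw signal, in intensity units, was 512.1, 838.4 and 514.0 on siNC CTRL replicates 1, 2 and 3, and 582.9 on the siNC TNF array. It was 1509.4, 1619.2 and 1503.0 on siEZH2 CTRL replicates 1, 2 and 3, and 1522.6 with TNF. Every siEZH2 array was thus above every siNC array. The signal was 146.8 ± 6.38 (bead SE) on the siRelB CTRL array and 183.6 ± 6.10 on the siRelB TNF array, both below every siNC array. It was 51.9 and 55.8 on the siRelA CTRL and TNF arrays, under the background of those arrays (59.8 and 61.5). The siNC array with the highest signal, CTRL replicate 2, also had the highest background, and over background the siNC arrays stood between 7.47 and 8.29.

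After background correction and quantile normalization, VNN1 was at 9.03 ± 0.17 (SD, n = 3) on the log2 scale in siNC CTRL and at 10.56 ± 0.09 (SD, n = 3) in siEZH2 CTRL. The siNC TNF array (9.15) lay within the range of the siNC CTRL arrays (8.90 to 9.22). The siEZH2 TNF array (10.67) lay 0.11 above the siEZH2 CTRL mean and above the range of those arrays (10.45 to 10.63). The siRelB arrays followed at 7.26 with TNF and 6.68 without, and the siRelA arrays were last at 4.51 and 4.47. The order of siRNAs was therefore siEZH2, siNC, siRelB and siRelA both with and without TNFalpha. Within a siRNA, the order of the TNF and CTRL arrays of siNC did not exceed the spread. That of siEZH2 rests on 1 TNF array, and that of siRelB on 1 array each. The siRelA values, both below detection, have no order.

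**Figure D2:**
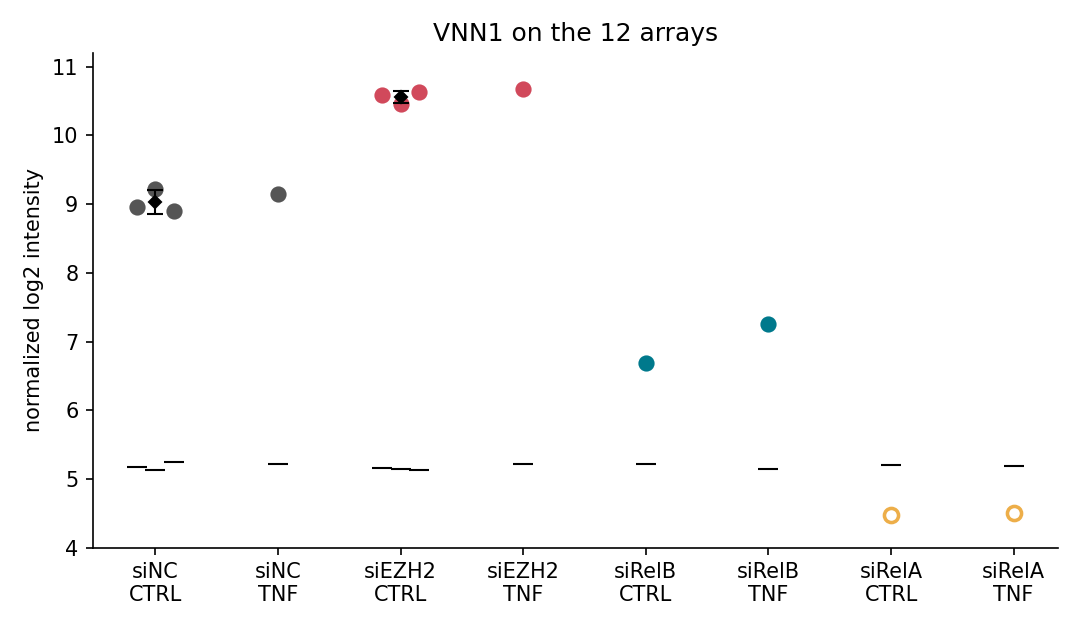
Normalized log2 intensity of VNN1 (y axis) on each of the 12 arrays by siRNA and TNFalpha (x axis), with filled points detected and open points not, diamonds with bars the mean ± SD of the groups with 3 arrays, and short black lines the lowest value of any detected probe on that array. The siEZH2 arrays lie between 10.45 and 10.67, the siNC arrays between 8.90 and 9.22, the siRelB arrays at 6.68 and 7.26, and the siRelA arrays below the detected range.

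The fall of VNN1 with siRelA is the value these genes were chosen by, namely the signal with siRelA set against siNC, so it is given as a description without a test. The fitted difference from siNC was -4.61 on the log2 scale over both TNFalpha states. It was -4.55 without TNFalpha and -4.64 with it. VNN1 was not detected with siRelA, so only a bound can be given. Against the dimmest detected probe of those arrays (mean log2 5.19), and only under the background correction and offset used here, VNN1 was at least 14.6-fold lower with siRelA than with siNC. On the same basis it was at least 42.1-fold lower than with siEZH2 and at least 3.43-fold lower than with siRelB. These folds depend on the processing: the fitted log2 difference from siNC was -3.21 without background correction and -2.59 in the authors' processed values, both smaller than that bound. The authors' values were centred separately within sets of arrays, with siNC arrays in both sets and siRelA arrays in one. The fit behind -2.59 held no term for the sets, so it does not reflect background alone. With such a term the fall was larger, as given in the closing section on processing. The comparisons with siRelB and siRelA share the siNC arrays.

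With EZH2 knocked down, VNN1 rose. Without TNFalpha it was higher by 1.53 ± 0.18 (SE) on the log2 scale, or 2.89-fold (95% interval of the log2 change 1.12 to 1.94, limma adjusted p = 0.00428, 3 arrays against 3). The rise was 1.63, 1.23 and 1.73 for replicates 1, 2 and 3, and the single TNF arrays differed by 1.53. Of the 2 vanins tested, 1 passed, against a background of 14.8% of all 12274 genes called in either direction (7.89% higher and 6.92% lower), and by size VNN1 ranked 220th among the genes with a positive change. With the replicate number as a block the number of genes called rose from 1817 to 5347, and VNN1 passed in both fits. The authors' processed values fall into separately centred sets of arrays, replicates 1 and 2 of siNC and siEZH2 CTRL forming the first and the other 8 arrays the second. Within the first set the VNN1 difference was 1.43 with limma adjusted p = 0.177 (2 arrays against 2), where limma called 0 genes and 1720 had an unadjusted p under 0.05. The second set holds 1 CTRL array of each siRNA, replicate 3, so there the siEZH2 effect was fitted over CTRL and TNF arrays together, with TNFalpha as a term, and was 1.63 (limma adjusted p = 0.000176). That fit called 6272 of the 12274 genes.

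With RELB knocked down, VNN1 fell. Its level fell by 2.14 ± 0.16 (SE) on the log2 scale, or 4.39-fold (95% interval of the log2 change -2.49 to -1.78, limma adjusted p = 0.000442, 2 siRelB arrays against 4 siNC arrays with TNFalpha as a term). The difference was -2.34 without TNFalpha and -1.89 with it. Of the 2 vanins tested 1 passed, against a background of 1.16% of all genes called (0.782% lower), and by size VNN1 ranked 21st among the falls. Within the second set of arrays, which holds all siRelB arrays, the difference was -2.05 (limma adjusted p = 0.000746). There 1927 of all 12274 genes were called, against 142 in the fit of all arrays. In the authors' processed values, with no term for their sets, it was -0.99 (limma adjusted p = 0.707), and with that term -1.79 (limma adjusted p = 0.000818). As given above, RELB was lower with siRelA too, and RELA did not pass with siRelB. The part of either in the fall of VNN1 was not tested.

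TNFalpha gave no detectable change of VNN1 at 4 h. Averaged over the siRNAs, VNN1 was higher by 0.19 ± 0.11 (SE) on the log2 scale (95% interval -0.06 to 0.45, limma adjusted p = 0.994, 4 TNF arrays against 8). The differences for single TNF arrays were 0.12 with siNC, 0.11 with siEZH2, 0.57 with siRelB and 0.03, between undetected values, with siRelA. None of the 2 vanins tested passed, against a background of 0.00% of all genes, since limma called 0 genes for TNFalpha and 219 had an unadjusted p under 0.05. The siEZH2 difference of VNN1 was 1.53 both without and with TNFalpha, and the interaction was -0.0040 ± 0.35 (SE) with a 95% interval of -0.83 to 0.82 (limma adjusted p = 1, background 0.00%, with 23 genes at an unadjusted p under 0.05). The larger TNFalpha difference under siRelB was compared with that under siNC after the values had been seen, and the gap of 0.45 ± 0.39 (SE) did not pass (limma adjusted p = 1).

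Markers of other cell types moved in part with the siRNAs, against the same background of 14.8% of all genes called with siEZH2 and 1.16% with siRelB. With siEZH2, of 4 tested blood-cell markers CD14, a monocyte co-receptor, rose by 1.26 ± 0.26 (SE) on the log2 scale (limma adjusted p = 0.0203). CD14 was detected on 5 arrays in all, fewer than the 6 arrays compared, and its log2 values ran from 4.55 to 6.71. The size of its rise thus rests in part on undetected values. LCP1, a leukocyte actin-bundling protein and also 1 of the 4, fell by 0.91 ± 0.25 (SE, limma adjusted p = 0.0492). The CD14 call was lost without any 1 of siNC and siEZH2 CTRL replicates 1 and 3 (adjusted p 0.0503 to 0.0908), and that of LCP1 without any 1 of the 6 arrays but siEZH2 CTRL replicate 2 (0.0787 to 0.164). In the authors' processed values neither passed (limma adjusted p = 0.101 for CD14 and 0.212 for LCP1). EPCAM, an epithelial adhesion protein and 1 of 6 tested epithelial markers, fell by 1.41 ± 0.25 (SE, limma adjusted p = 0.0119), a call lost without siEZH2 CTRL replicate 1 or siNC CTRL replicate 3 (0.0527 and 0.0557). CAV1, 1 of 5 mesenchymal-like markers, fell by 0.73 ± 0.18 (SE, limma adjusted p = 0.0384), a call lost without any 1 of the 6 arrays (0.0596 to 0.136). With siRelB none of the tested markers of these lists passed (LCP1 -0.94, limma adjusted p = 0.0804), and with siRelA LCP1 fell by 1.86 ± 0.21 (SE, limma adjusted p = 0.00175), a call lost without the siRelA CTRL array (0.0776). Their part in the VNN1 differences was not tested.

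**Figure D3:**
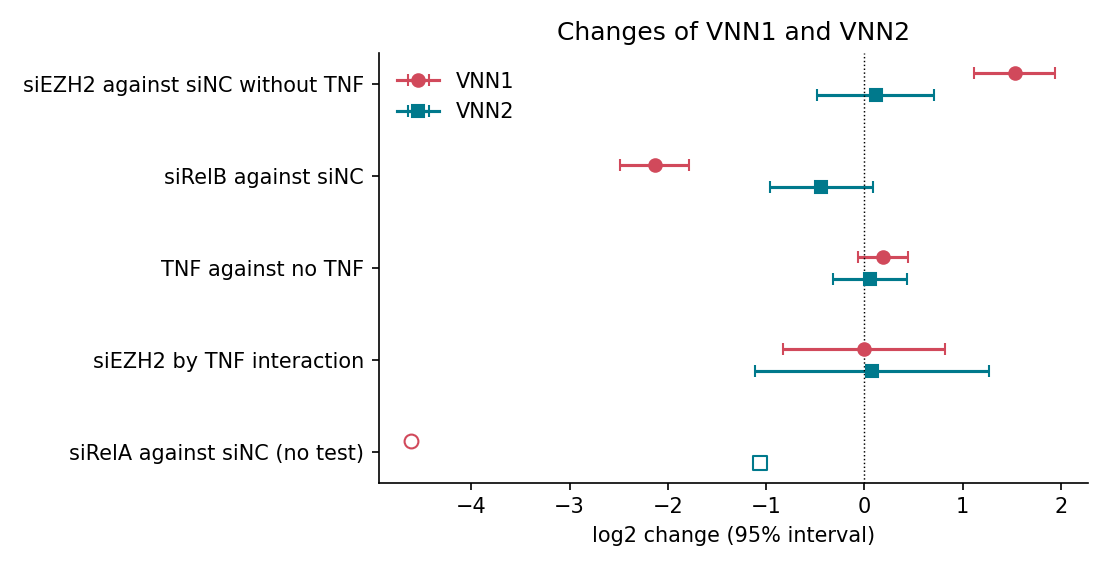
Log2 change (x axis) of VNN1 (circles) and VNN2 (squares) in 5 comparisons (y axis), with bars the 95% intervals and open symbols the siRelA difference, which was not tested. The VNN1 intervals leave out 0 for siEZH2 (1.12 to 1.94) and siRelB (-2.49 to -1.78), and every VNN2 interval includes 0.

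VNN2 was close to background throughout. Its detected probe gave 96.7, 145.8 and 103.1 on siNC CTRL replicates 1, 2 and 3, and 108.8 on the siNC TNF array. It gave 115.4, 122.7 and 127.2 on siEZH2 CTRL replicates 1, 2 and 3, and 122.5 with TNF. It gave 85.3 and 77.7 on the siRelB CTRL and TNF arrays. The siEZH2 and siNC arrays overlapped, and in raw signal the siRelB arrays were the lowest of those on which it was detected. That order did not hold over background, where siEZH2 CTRL replicate 2 stood at 1.23 times its background and the siRelB CTRL and TNF arrays at 1.44 and 1.34 times theirs. On the siRelA arrays it read 67.4 without TNFalpha and 58.9 with it, not detected on either.

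On the normalized log2 scale VNN2 was at 5.70 ± 0.16 (SD, n = 3) in siNC CTRL and 5.82 ± 0.44 (SD, n = 3) in siEZH2 CTRL. The siEZH2 change was 0.12 ± 0.25 (SE), with a 95% interval of -0.48 to 0.71 (limma adjusted p = 0.85), and replicate pairs went both ways (0.54, -0.49 and 0.30). The siRelB change was -0.44 ± 0.24 (SE), with a 95% interval of -0.96 to 0.09 (limma adjusted p = 0.602). In the second set of arrays alone it passed, at -0.51 (limma adjusted p = 0.0321). That fit called 1927 of all 12274 genes, against 142 in the fit of all arrays. TNFalpha gave 0.06 ± 0.17 (SE, limma adjusted p = 0.994) and the siEZH2 by TNFalpha interaction 0.08 ± 0.51 (SE, limma adjusted p = 1). The siRelA difference, a description only, was -1.07, which with undetected values stands, under the same background correction and offset, as at least 1.48-fold lower than with siNC (-0.55 on the log2 scale without background correction). The other 2 VNN2 probes gave signals of 43.3 to 119.0 without being detected on any array, so the VNN2 values rest on 1 of its 3 probes. Across arrays the normalized VNN1 and VNN2 values had a Pearson correlation of 0.88 (n = 12), and of 0.66 over the 10 arrays without siRelA. The arrays share their siRNA groups, and the highest VNN2 signal came from the array with the highest background.

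VNN3, a pseudogene in the current assembly, gave no level that stood clear of background. Its first probe ran from 56.8 to 120.3 and its second from 50.7 to 140.6 in signal, the highest of each on siNC CTRL replicate 2. On that array the second probe stood 1.39 times over background, and on siEZH2 CTRL replicate 2 it stood 1.18 times over. On the other 10 arrays neither probe was detected. No comparison between siRNAs was therefore made for VNN3.

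Coenzyme A synthesis begins with the pantothenate kinases PANK1, PANK2 and PANK3, which phosphorylate the product of vanins, and runs through PPCS and PPCDC to COASY, which completes the molecule. PANK4 is a related protein that lacks the kinase activity. Of 11 genes of this route and of pantothenate uptake, 10 were tested, PPCDC being detected on 0 arrays. With siEZH2, 1 rose and 0 fell, near the background of 7.89% of all genes called higher, with a median log2 change of 0.05 against -0.0055 over all genes. With the replicate block, which called 5347 of 12274 genes, 2 rose and 1 fell. That larger share is the background of every count with the replicate block in the lists below. The gene that rose was PANK3, at 1.24 ± 0.24 (SE, limma adjusted p = 0.0173). That call was lost without siNC CTRL replicate 1 (1.17, limma adjusted p = 0.0684), siNC CTRL replicate 3 (1.17, 0.0819) or siEZH2 CTRL replicate 3 (1.29, 0.0633). Log2 changes of the others named did not pass, at -0.15 for PANK1, 0.20 for PANK2, 0.30 for PANK4, -0.14 for PPCS and -0.37 for COASY. With siRelB, none of the 10 passed, with changes from -0.46 to 0.31 and a median of 0.10 against 0.036 over all genes. With siRelA, none of the 10 passed, with changes from -0.33 to 0.51. The backgrounds were 1.16% of all genes called with siRelB and 1.37% called lower with siRelA. In lists this short, here and below, 0 calls lie near those backgrounds.

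Of 8 genes listed on the array for the breakdown of coenzyme A, its derivatives and acyl-CoA, 7 were tested. The single call was of ACP6, a mitochondrial lysophosphatidic acid phosphatase and so not an enzyme of that breakdown, against a background of 14.8% of all genes called. With siEZH2 it rose by 0.79 ± 0.18 (SE, limma adjusted p = 0.0307) and the other 6 did not pass. With the replicate block 1 of the 7 rose and 2 fell, against the larger background of that fit given above. The ACP6 call was lost on leaving out any 1 of siNC CTRL replicates 1 and 3 and siEZH2 CTRL replicates 1, 2 and 3 (adjusted p 0.068 to 0.142). With siRelB or siRelA none of the 7 passed, near the low backgrounds given above. The nitrilase-like relatives of vanins, which share their catalytic fold, had 4 tested members. None passed with siEZH2, siRelB or siRelA, and a list of 4 is too short to set 0 calls apart from the backgrounds. With the replicate block 2 of the 4 fell with siEZH2, near the larger background of that fit. BTD, the biotin-recycling biotinidase and the closest of these relatives, differed by 0.22 with siEZH2, 0.07 with siRelB and 0.03 with siRelA on the log2 scale.

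Downstream of cysteamine and in thiol metabolism, 1 of 5 tested genes of cysteamine, cysteine and taurine handling (10 on the array) and 1 of 10 tested glutathione genes passed with siEZH2, against a background of 14.8% of all genes called. With siRelB the counts were the same, against 1.16% of all genes. With the replicate block, siEZH2 gave 0 rises and 2 falls in the first list and 2 rises and 3 falls in the second. These stand against the larger background of that fit given above. CTH, which makes cysteine from cystathionine, fell by 1.46 ± 0.24 (SE) on the log2 scale with siEZH2 (limma adjusted p = 0.00971) and fell by 1.13 ± 0.21 (SE) with siRelB (limma adjusted p = 0.0376). The siRelB call was lost on leaving out any 1 of siNC CTRL replicates 1 and 3, the siNC TNF array and the siRelB CTRL and TNF arrays (adjusted p 0.0613 to 0.516). GSTP1, a glutathione transferase, rose by 1.58 ± 0.20 (SE) with siEZH2 (limma adjusted p = 0.00484) and by 1.50 ± 0.17 (SE) with siRelB (limma adjusted p = 0.00209). The siRelB call did not pass without the siRelB CTRL array (1.60, limma adjusted p = 0.0605) or without the siRelB TNF array (1.41, 0.0755). Both genes moved the same way with siEZH2 and siRelB, comparisons that share siNC arrays, whereas VNN1 moved in opposite directions. With siRelA, none of the tested genes of either list passed, near the low background given above.

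Further lists covered the PPAR receptors and the GPI anchor. VNN1 is a known target of the nuclear receptor PPARA in liver. Of 13 PPAR receptors and targets, all tested, PPARG fell with siEZH2 by 1.14 ± 0.20 (SE) on the log2 scale (limma adjusted p = 0.0122). The background was 14.8% of all genes called. With siRelB or siRelA none of the 13 passed, near the low backgrounds given above. With the replicate block 2 rose and 2 fell with siEZH2, against the larger background of that fit given above. The PPARG call was lost without siEZH2 CTRL replicate 1 (-1.15, limma adjusted p = 0.0527) or replicate 3 (-1.16, 0.0543). Of 10 tested genes of GPI anchor assembly and attachment, PIGS and PIGT, subunits of the transamidase that attaches the anchor, rose with siEZH2 by 1.05 ± 0.19 and 0.65 ± 0.16 (SE, limma adjusted p = 0.0142 and 0.0333). PIGA, which acts in the first step of anchor synthesis, fell by 0.67 ± 0.18 (SE, limma adjusted p = 0.0446). The PIGS call was lost without siEZH2 CTRL replicate 1, siNC CTRL replicate 3 or siEZH2 CTRL replicate 3 (adjusted p 0.0604 to 0.0715). Those of PIGT and PIGA were lost without any 1 of the 6 arrays other than siNC CTRL replicate 2 (adjusted p 0.0746 to 0.136 and 0.105 to 0.193). With the replicate block 3 of the 10 rose and 3 fell with siEZH2, against the larger background of that fit. None of the 10 passed with siRelB or siRelA, near the same low backgrounds.

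Of 12 NF-kB reference genes, all tested, 9 fell with siRelA, against a background of 1.37% of all genes called lower, with a median log2 change of -2.29 against 0.029 over all genes. The count was 6 without the siNC TNF array, and lower still without either siRelA array, which leaves 1 siRelA array. The number of all genes called moved as well on leaving out 1 array, as given in the closing section on processing. These counts therefore do not describe the NF-kB genes alone. With siRelB, 1 of the 12 passed: IL6, a cytokine, fell by 2.83 ± 0.48 (SE, limma adjusted p = 0.0207), and it did not pass without the siNC TNF array or either siRelB array (adjusted p 0.0631 to 0.516). With siEZH2, 6 fell and 1 rose, against a background of 6.92% of all genes called lower and 7.89% higher. With the replicate block 8 fell and 1 rose, against the larger background of that fit given above. Without the block, on leaving out 1 of the 6 arrays between 1 and 6 fell and 0 or 1 rose. In those fits 611 to 2168 of all genes were called, against 1817 with all arrays. The lowest count of falls, 1, came without siEZH2 CTRL replicate 1 or 3 or without siNC CTRL replicate 3. The gene that rose was ICAM1, a leukocyte adhesion molecule, by 2.02 ± 0.42 (SE, limma adjusted p = 0.0217), a call that held without siNC CTRL replicate 2 and was lost without any other 1 of the 6 arrays (adjusted p 0.0512 to 0.0868). ICAM1 differed by -1.49 ± 0.40 (SE) with siRelB, which did not pass (limma adjusted p = 0.146). With TNFalpha none of the 12 passed, although their median log2 change was 0.89 against -0.0016 over all genes.

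**Figure D4:**
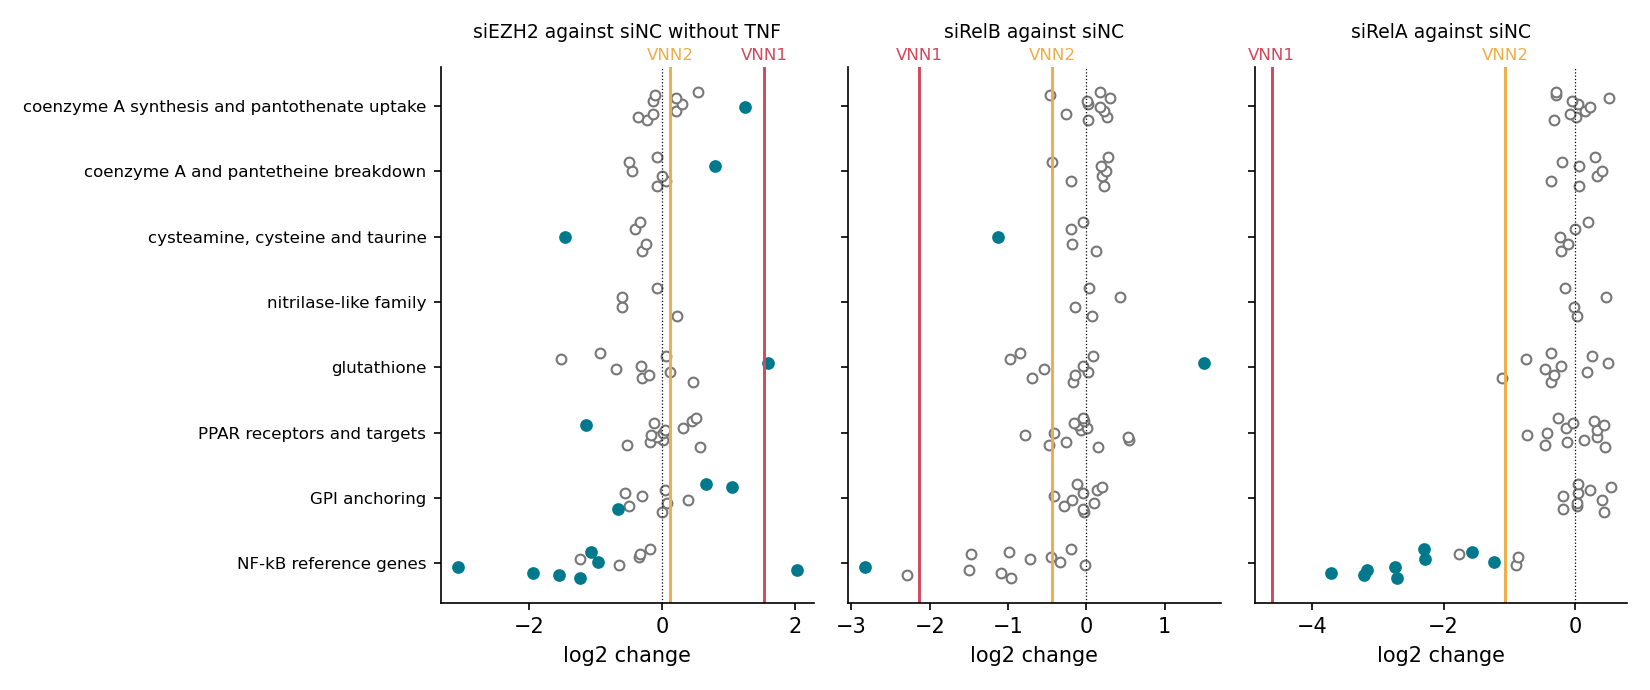
Log2 change (x axis) of each tested gene of 8 lists (y axis) with siEZH2, siRelB and siRelA against siNC, filled where the gene passed a limma adjusted p of 0.05 and open where it did not. Vertical lines mark VNN1 and VNN2; the VNN1 line lies at 1.53, -2.14 and -4.61, and within the coenzyme A, nitrilase-like and GPI lists no gene lies beyond it.

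Genes next to the vanins on chromosome 6 served as a local comparison. Of the 5 nearest genes with a probe on the VNN1 side, TAAR2 was tested, and TAAR1, TAAR5, TAAR6 and TAAR8, also receptors for trace amines, were detected on 0 or 1 arrays. On the VNN2 side SLC18B1, RPS12, EYA4, TCF21 and TBPL1 were tested. None of these 6 passed in any comparison, where at most 14.8% of all genes were called. SLC18B1, a vesicular polyamine transporter and the gene next to VNN2, differed by -0.91 ± 0.21 (SE) on the log2 scale with siRelA (limma adjusted p = 0.0649), by -0.54 ± 0.21 (SE) with siRelB (0.382) and by 0.35 ± 0.25 (SE) with siEZH2 (0.444). The other 5 differed by -0.60 to 0.29 across these comparisons.

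The genes whose normalized levels followed VNN1 most closely over all 12 arrays were MMP1 (Pearson r = 0.98), ABL1 (0.97), FBXO32 (0.97), JAG1 (0.97) and IL32 (0.96). The 100th gene in that order had r = 0.87. MMP1, an interstitial collagenase, came nearest in size as well, with mean log2 levels of 13.00 with siEZH2, 11.16 with siNC, 9.60 with siRelB and 7.44 with siRelA. IL32, a cytokine detected on 9 arrays, went from 6.63 to 6.07, 5.48 and 4.52 in the same order, the last below the detected range. JAG1, a Notch ligand, went from 8.97 to 8.39, 7.94 and 7.31. The ABL1 and FBXO32 values are those of their brightest probe. The other 2 ABL1 probes had r of -0.16 and -0.30, and of the other 2 FBXO32 probes 1 had r = 0.97 and 1 r = -0.02.

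Without the siRelA arrays the 5 genes were IDUA (r = 0.99, n = 10), SCG2 (0.99), CXCL16 (0.98), PLOD1 (0.98) and VIPR1 (0.97). SCG2, a secretory granule protein, had mean log2 levels of 7.73 with siEZH2, 6.69 with siNC and 4.92 with siRelB, but 6.46 with siRelA, where VNN1 was lowest. VIPR1, a receptor for vasoactive intestinal peptide, went from 9.45 to 7.93 and 5.94, and was at 7.37 with siRelA. CXCL16, a chemokine, went from 6.99 to 6.08 and 5.07, and was at 5.42 with siRelA. The siRelB means of SCG2 and CXCL16 lay below the lowest detected values of the siRelB arrays (5.14 and 5.21). None of these 5 genes was among the 5 found with siRelA, but the lists were not sharply separate. Over the 10 arrays MMP1 (0.94), ABL1 (0.95), FBXO32 (0.93) and JAG1 (0.93) stood above the 100th gene (0.90), and IL32 (0.88) below it. Over 12 arrays IDUA (0.90) and PLOD1 (0.91) stood above the 100th gene (0.87), and SCG2 (0.65), CXCL16 (0.85) and VIPR1 (0.73) below it. An FBXO32 probe other than the brightest had r = 0.99 over the 10 arrays. For VNN2 the closest genes over 12 arrays were RGL2 (0.95), CASP1 (0.95), CSF1 (0.93), SLC38A6 (0.92) and IL1B (0.91). Over 10 arrays they included CASP1 (0.88), CSF1 (0.87), PSMD7 (0.87) and NIPA1 (0.87). These correlations describe levels over arrays that share siRNA groups and, for the replicates, array backgrounds.

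**Figure D5:**
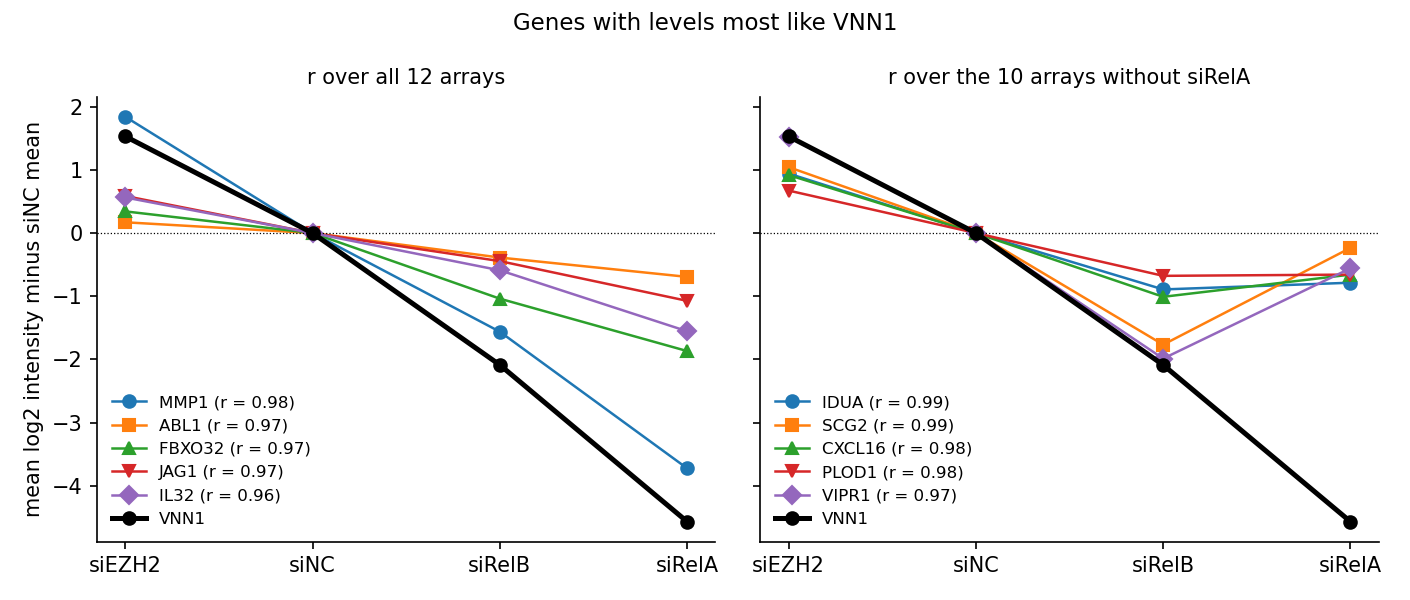
Mean log2 intensity of each gene minus its siNC mean (y axis) by siRNA over both TNFalpha states (x axis), for VNN1 (black) and the 5 genes most correlated with it over all 12 arrays (left) and over the 10 arrays without siRelA (right). On the left all 5 genes are lowest with siRelA, as VNN1 is, which choosing them by correlation over arrays that include siRelA favours. On the right SCG2, VIPR1 and CXCL16 are lowest with siRelB, and PLOD1 by little (10.45 against 10.47 with siRelA). The IDUA means with siRelB (4.98) and siRelA (5.08) lie below the lowest detected values of those arrays (5.14 to 5.21) and have no order. SCG2 and CXCL16 with siRelB and IL32 with siRelA also lie below that range.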

How the data were processed

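Average signal intensity per probe was deposited by the authors on a linear scale without normalization, per the file headers, with a detection score and bead counts; the submitters' processing notes name BeadStudio 3.2.7. Since the score rises with signal, 1 minus it served as detection p. The authors' processed log2 values, deposited in a separate table, equalled log2 signal minus each array's 75th percentile and a probe centre, taken per set of arrays (SD of the remainder over 3244 bright probes at most 5.64e-07 within a set, at least 0.318 between sets). They served as an alternative. Their column medians ran from -0.12 to 0.21. The tool behind them was not stated in any source used.

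Signals were background-corrected by limma's normal-exponential method (limma 3.58.1, R 4.3.3) with an offset of 16, quantile normalized and put on a log2 scale. Probes with detection p under 0.05 on at least 3 arrays were kept (13884 of 22184, 12274 genes, the brightest probe per gene). Names were updated through a gene table of GRCh38.p14, in which 17828 probes matched a current symbol, 3305 a synonym and 252 a gene ID; 183 were ambiguous and 616 matched nothing. Differences were tested in limma (lmFit, eBayes), with p-values adjusted over all genes by Benjamini-Hochberg and a threshold of 0.05. For siEZH2 against siNC and the interaction each group had its own mean, and the interaction assumes that single TNF arrays vary like the replicated groups. For siRelA, siRelB and TNFalpha the model added siRNA and TNFalpha effects over 12 arrays. Bounds for undetected values used the higher of the probe's own value and the lowest detected value on each array. Replicate numbers paired the siNC and siEZH2 CTRL arrays: same-numbered arrays deviated together (r = 0.76, 0.84 and 0.65). Calculations were tested on simulated data.

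The members and gene lists were chosen with earlier results of these data known. Named are all members, the targeted genes, at most 4 genes per list and comparison that passed, the PANK genes, PPCS, PPCDC, COASY and BTD in any case, the 5 genes closest in level to each tested member, and the 5 nearest neighbours on each side. Of the siRelA calls per list, only counts are given, except LCP1, added after its values were seen. Other planned promoter motifs (a single kB site and the PPAR element) are not reported. 1 of the genes closest in level to VNN2 is not reported here. ACOT1, NUDT7, NUDT19 and PGAP2, listed for the pathways above, were not matched to a probe. Alternatives covered background correction, scaling, filtering, probe choice, processing sets, pairing and single arrays.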

Additional observations from a re-analysis of the deposited data

How the results depend on the processing

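The directions of the VNN1 changes with siEZH2, siRelB and siRelA held in every alternative run. The siEZH2 rise ran from 1.38 to 1.68 on the log2 scale. It did not pass in the authors' processed values (1.38, limma adjusted p = 0.292) or in the first processing set alone (1.43, limma adjusted p = 0.177, 2 arrays against 2). Leaving out 1 array gave 1.47 to 1.63 (adjusted p 0.00439 to 0.0302). With the replicate number as a block it was 1.53 (limma adjusted p = 0.000186), and VNN2 again did not pass. The block was fitted for this comparison only. The siRelB fall did not pass in the authors' processed values (-0.988, limma adjusted p = 0.707), and it ran from -2.35 to -1.87 on leaving out 1 array (adjusted p 0.000185 to 0.0231). The untested siRelA difference of VNN1 was -3.21 without background correction, -3.37 with an offset of 50, -2.59 in the authors' values and -3.40 with a set term, and -4.72 to -4.53 on leaving out 1 array. TNFalpha did not pass for VNN1 in any alternative, with 0.0958 to 0.231 on leaving out 1 array and 1.03 in the authors' values without a set term. All TNF arrays lie in the second set and the CTRL arrays in both, so the 1.03 also holds the separate centring of the sets.

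The VNN1 interaction of siEZH2 and TNFalpha, near 0 throughout, changed sign to 0.00353 (no background correction), 0.000912 (offset of 50), 0.0274 (median scaling) and 0.00553 (authors' values, with or without a set term). Leaving out 1 array gave -0.101 to 0.0599, with positive values of 0.0297, 0.0113, 0.0599 and 0.0324. It could not be fitted in either processing set alone. The VNN2 changes, none of which passed at first, reversed to -0.00414 and -0.0136 for siEZH2 without siEZH2 CTRL replicate 1 or 3 (0.370 at most on leaving out 1 array). For TNFalpha they reversed to -0.00852 (authors' values with a set term), -0.0719 (set term, and the second set alone), -0.0115 (without both replicate 2 arrays), -0.0180, -0.00402 and -0.0366 (without siEZH2 CTRL replicate 2, siNC TNF or siEZH2 TNF, and 0.141 at most on leaving out 1 array). For the interaction they reversed to -0.228 (without both replicate 2 arrays) and -0.177 (without siEZH2 CTRL replicate 2, with at most 0.207 on leaving out 1 array). The causes were not tested.

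The number of genes called with siEZH2, 1817, was 950 in the authors' values, 3801 without both replicate 2 arrays, 6272 in the second set alone (CTRL and TNF arrays together), 5347 with the replicate block, 0 in the first set alone (limma, 1720 at an unadjusted p under 0.05) and 611 to 2168 on leaving out 1 array. That with siRelB, 142, was 48 in the authors' values, 248 with their set term, 1927 in the second set, 1347 without both replicate 2 arrays, 85 without the siRelA arrays and 15 to 333 on leaving out 1 array. That with siRelA, 245, was 101, 2143 (second set), 1518 (without both replicate 2 arrays) and 40 to 462. For TNFalpha 2 genes were called without both replicate 2 arrays and 1 without siEZH2 CTRL replicate 2. Signal over background limits VNN2 and VNN3, whose probes stood at most 1.76 times over background.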
